A study of Mus musculus with 6 samples.

Results

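Adult skeletal muscle of 3 Baf155 WT and 3 Baf155 ΔMF mice was examined for 7 genes that set the electrical behaviour of the muscle surface membrane, chosen by name from the 20632 genes of the deposited read-number table. They were *Scn4a* (sodium channel), *Clcn1* (chloride channel), *Kcnj2*, *Kcnj11* and *Kcna7* (potassium channels), *Abcc9* (regulatory subunit of a potassium channel) and *Atp1b1* (subunit of the Na,K-ATPase). All 7 were found in the table and passed the filter on low counts. Total RNA came from pooled tibialis anterior, extensor digitorum longus, gastrocnemius, soleus and quadriceps muscles of single unexercised male C57BL/6 mice (C57BL/6J background in the study's methods) aged 3 months. Baf155 ΔMF mice carried *MCK*-Cre and 2 floxed *Baf155* alleles, and their genotype label is Baf155 -/-. Baf155 WT mice carried the floxed alleles without Cre, and their label is wild type. The *MCK* promoter drives Cre in skeletal and cardiac muscle, so the other cells of the whole muscle, such as those of vessels and connective tissue, were not targeted.

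An action potential in a muscle fibre starts with current through voltage-gated sodium channels and ends with outward potassium current. Chloride channels and inward rectifier potassium channels hold the fibre near its resting potential, and the Na,K-ATPase restores the ion gradients between contractions. ATP-sensitive potassium channels link the same membrane to energy metabolism, because they close when ATP is high. Inherited defects of the sodium, chloride and inward rectifier channels cause myotonias and periodic paralyses.

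*Smarcc1*, which encodes Baf155, reached 23.4, 19.5 and 17.0 CPM (counts scaled to library size after TMM normalization) in Baf155 WT muscle, and only 7.05, 6.54 and 7.72 CPM were left after deletion (log2 fold change -1.49, adjusted p = 0.00907, edgeR). In whole muscle, fewer cells of a type and less RNA per cell cannot be told apart. The libraries held 8426022 to 12469335 counts, and 3 counts, the smallest level taken as shown, equalled 0.229 to 0.35 CPM, which covers counting error only. Sample titles begin with MS13, MS14 or MS15, prefixes whose meaning the labels do not state. MS13 holds 1 Baf155 WT mouse (MS13-3) and 2 Baf155 ΔMF mice (MS13-1 and MS13-2), whereas both MS15 mice are Baf155 WT and the MS14 mouse is Baf155 ΔMF. Outside MS13, prefix and genotype cannot be told apart. The number of genes called depended on MS13-3: without it 955 of 12288 genes tested (7.77%) had an adjusted p under 0.05 in edgeR's quasi-likelihood test, and with it 3 of 12116 (0.0248%). Results that rest on this mouse are therefore given with and without it. Values are listed in the order MS13-3, MS15-2 and MS15-3 for Baf155 WT (WT) and MS13-1, MS13-2 and MS14-2 for Baf155 ΔMF (ΔMF).

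None of the 7 genes was called between genotypes at an adjusted p under 0.05 (edgeR, Benjamini-Hochberg over 12116 genes, background 0.0248%). DESeq2 and limma-voom also called 0 of the 7. At an unadjusted p under 0.05, 1 gene, *Atp1b1*, was higher in ΔMF muscle in each of these 3 tests, beside 7.95% of all genes by edgeR in either direction and 3.35% in this direction. The genotypes overlapped in all 7 genes, whereas they did not overlap in 10.8% of all genes tested. The median log2 fold change was 0.11 over the 7 genes and -0.00095 over all genes, with 6 estimates above and 1 below zero.

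Sequences around the annotated starts are shown for the members with the smallest (*Clcn1*) and the 2 largest (*Atp1b1*, *Scn4a*) estimated genotype differences. None of these differences was called. The 3 were chosen with their motifs and estimates known, so no link between motifs and differences can be read from them. Each is the RefSeq window on GRCm38.p6 from 250 bases before to 50 bases after the annotated start, read 5' to 3' on the strand of the gene. Capitals mark matches to CANNTG (the E-box bound by MyoD-family factors), to CTA, any 4 bases and TAG (a MEF2-type motif) or to CATTCC (the MCAT motif of TEAD factors), searched on both strands.
Clcn1 (chr6:42286435-42286734, plus strand): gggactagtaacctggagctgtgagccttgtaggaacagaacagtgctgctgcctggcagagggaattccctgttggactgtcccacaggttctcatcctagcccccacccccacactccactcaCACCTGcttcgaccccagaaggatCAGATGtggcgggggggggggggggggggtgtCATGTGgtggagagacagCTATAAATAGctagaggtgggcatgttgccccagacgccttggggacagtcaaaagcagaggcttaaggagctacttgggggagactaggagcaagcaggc
Scn4a (chr11:106349341-106349640, minus strand): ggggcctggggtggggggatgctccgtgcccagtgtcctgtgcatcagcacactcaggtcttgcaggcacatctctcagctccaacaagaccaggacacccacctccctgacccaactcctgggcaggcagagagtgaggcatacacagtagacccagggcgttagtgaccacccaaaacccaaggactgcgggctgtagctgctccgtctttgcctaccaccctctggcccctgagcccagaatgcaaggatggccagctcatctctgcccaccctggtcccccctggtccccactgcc
Atp1b1 (chr1:164458306-164458605, minus strand): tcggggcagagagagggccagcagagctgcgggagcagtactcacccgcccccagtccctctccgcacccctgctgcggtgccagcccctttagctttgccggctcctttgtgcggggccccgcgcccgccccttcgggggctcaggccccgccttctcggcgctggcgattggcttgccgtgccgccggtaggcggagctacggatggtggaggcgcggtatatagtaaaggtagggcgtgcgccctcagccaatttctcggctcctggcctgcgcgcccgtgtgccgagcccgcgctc
The *Clcn1* window holds 3 E-boxes and 1 MEF2-type motif, CTATAAATAG, which begins 51 bases before the start and contains the letters TATAAA. The windows of *Scn4a* and *Atp1b1* hold no match to the 3 motifs. The windows of *Scn4a* and *Kcna7* lie wholly inside the longer spans that GENCODE gives these genes. Their motif content therefore holds for the RefSeq starts only. A window was found for 6 of the 7 genes, without *Kcnj11*. *Kcnj2* has 2 E-boxes, *Kcna7* has 3 and *Abcc9* has 1 with 1 MCAT motif. Among the 32851 RefSeq windows, 72.3% hold an E-box, 3.69% the MEF2-type motif and 14.7% the MCAT motif. GC content was 71% in the *Atp1b1* window, 63% in that of *Scn4a* and 59% in that of *Clcn1*.

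*Scn4a*, the pore-forming subunit of the adult muscle sodium channel, lies on the minus strand of chromosome 11 from 106318592 to 106353288 (GRCm38, GENCODE M21). Its level was 575.0, 415.1 and 377.4 CPM in the WT mice and 582.0, 507.3 and 489.9 CPM in the ΔMF mice. The MS13-3 mouse was close to the highest ΔMF mouse, and both MS15 mice were below all ΔMF mice. The means were 456 ± 105 and 526 ± 49.0 CPM (SD, n = 3 mice each), a 1.16-fold difference with a 95% interval from 0.92 to 1.45 (adjusted p = 0.694, edgeR). Within MS13 the log2 difference was -0.08. With MS13-3 left out, *Scn4a* was called at a log2 fold change of 0.41 (SE 0.10; adjusted p = 0.0244), and both remaining WT mice carry the prefix MS15.

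The accessory sodium channel subunits tested were not called either. *Scn4b*, a beta subunit, had 512.4, 441.6 and 406.6 CPM in WT and 502.8, 457.1 and 463.0 CPM in ΔMF mice. Its log2 fold change was 0.06 (adjusted p = 0.872, edgeR). Of 13 listed sodium channel subunits other than *Scn4a*, 7 were tested and 0 had an unadjusted p under 0.05.

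*Clcn1*, the chloride channel that carries most of the resting conductance of a fibre, lies on the plus strand of chromosome 6 from 42286685 to 42315756, where 445 exon bases also belong to *Fam131b* on the other strand. It had 142.4, 123.8 and 123.7 CPM in the WT mice and 140.4, 125.8 and 132.1 CPM in the ΔMF mice. The highest and the lowest value were both in WT mice. The fold difference was 1.02, and its 95% interval of 0.885 to 1.18 was the narrowest of the 7 genes on the log2 scale. With library size scaling the log2 fold change was -0.0280, where the median of all genes was -0.0643. Within MS13 the log2 difference was -0.10. Whether the reads were counted by strand is not stated. *Fam131b* was listed at a mean of 5.70 CPM in WT and 6.08 CPM in ΔMF muscle. In the other ClC genes 0 of 6 tested had an unadjusted p under 0.05. Among these, *Clcn4* had a log2 fold change of 0.05 and *Clcn3* of 0.12. The genotypes did not overlap in *Clcn6*, with 8.55, 8.03 and 8.12 CPM against 8.01, 5.50 and 7.25 CPM (log2 fold change -0.25, adjusted p = 0.675, edgeR).

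*Kcnj2*, an inward rectifier that sets the resting potential, lies on the plus strand of chromosome 11 from 111066164 to 111076821. It had 227.9, 228.1 and 192.7 CPM in the WT mice and 266.5, 240.7 and 193.0 CPM in the ΔMF mice. MS15-3 and MS14-2, 1 mouse of each genotype, shared the low values. The fold difference was 1.08 with a 95% interval from 0.891 to 1.31 (adjusted p = 0.809, edgeR). Within MS13 it was 0.15 on the log2 scale. *Kcnj12*, a second strong inward rectifier of muscle, averaged 65.8 ± 0.882 CPM in WT and 63.8 ± 4.39 CPM in ΔMF muscle (n = 3 mice each, adjusted p = 0.894, edgeR).

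**Figure D1:**
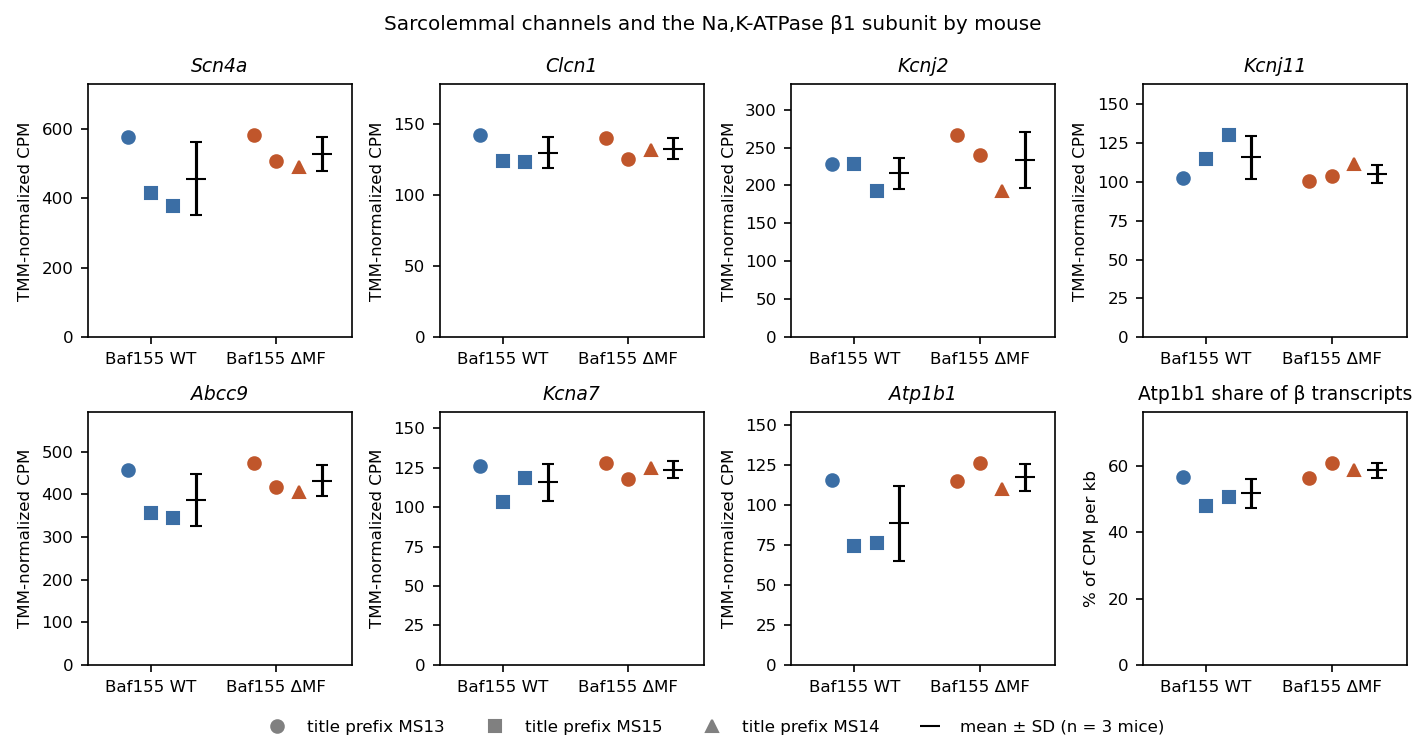
TMM-normalized CPM of the 7 genes in each mouse. The last panel gives the share of *Atp1b1* among the Na,K-ATPase beta transcripts, the beta-like *Atp1b4* included, in percent of CPM per kb. Marker shapes give the title prefix and bars the mean ± SD of 3 mice. The 2 MS15 Baf155 WT mice (squares) lie below all Baf155 ΔMF mice in *Scn4a*, *Clcn1*, *Abcc9* and *Atp1b1* and above them in *Kcnj11*, whereas the MS13 Baf155 WT mouse (circle) lies among or beyond the Baf155 ΔMF mice.

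The muscle ATP-sensitive potassium channel is built from a pore subunit, encoded by *Kcnj11*, and a sulfonylurea receptor, encoded by *Abcc9* in many muscles and by *Abcc8* in others. *Kcnj11* lies on the minus strand of chromosome 7 from 46093953 to 46100764. Its level was 102.5, 114.8 and 130.3 CPM in the WT mice and 100.4, 103.6 and 111.3 CPM in the ΔMF mice. This was the only gene of the 7 with a lower mean in ΔMF muscle, at 0.907-fold with a 95% interval from 0.774 to 1.06 (adjusted p = 0.698, edgeR). The MS13-3 mouse lay within the ΔMF range, and the log2 difference within MS13 was -0.0074.

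*Abcc9* lies on the minus strand of chromosome 6 from 142587862 to 142702315 and shares 158 exon bases with an antisense gene. It had 456.5, 355.7 and 345.8 CPM in the WT mice and 474.2, 417.8 and 405.2 CPM in the ΔMF mice. As in *Scn4a*, both MS15 mice were lowest and MS13-3 lay among the ΔMF mice. The fold difference was 1.12 with a 95% interval from 0.929 to 1.35 (adjusted p = 0.703, edgeR). The deposited counts of *Abcc9* and *Atp1b1* differed from whole numbers by more than 1e-09 in 6 of 6 mice, those of *Kcnj2* in 1 mouse and those of the other 4 genes in 0 mice. *Abcc8* was listed at 2.71 ± 0.575 CPM in WT and 2.31 ± 0.519 CPM in ΔMF muscle.

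*Kcnj8* encodes the other pore subunit of ATP-sensitive channels, known from vascular smooth muscle and pericytes. It had 17.7, 16.1 and 13.3 CPM in the WT mice and 19.3, 20.9 and 17.7 CPM in the ΔMF mice, a log2 fold change of 0.30 (SE 0.13, adjusted p = 0.611, edgeR). The highest WT mouse lay just above the lowest ΔMF mouse. The summed level of 7 mural cell markers ranged from 685 to 856 CPM in WT and from 827 to 957 CPM in ΔMF muscle. *Rgs5* alone, a pericyte gene, made up 460 to 626 CPM of it in WT and 574 to 741 CPM in ΔMF mice, and *Acta2* had a log2 fold change of -0.15. As a mean of log2 CPM over the 7 markers, MS13-3 (5.78) was above 2 of the 3 ΔMF mice (5.73, 5.74 and 5.88). Their part in the values of *Abcc9* and *Kcnj8* was not tested.

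*Kcna7*, a Shaker-type voltage-gated potassium channel of muscle and heart, lies on the plus strand of chromosome 7 from 45405653 to 45409763. It had 125.9, 103.0 and 118.3 CPM in the WT mice and 128.1, 117.6 and 125.0 CPM in the ΔMF mice. MS15-2 was the lowest mouse, and MS15-3 lay within the ΔMF range. The fold difference was 1.07 with a 95% interval from 0.92 to 1.24 (adjusted p = 0.783, edgeR). Among 16 other voltage-gated potassium channel genes tested of 43 listed, 1 had an unadjusted p under 0.05, *Kcna1*, a related Shaker-type channel known from nerve. *Kcna1* was low, at 4.28, 1.99 and 2.41 CPM in WT and 4.70, 6.65 and 3.27 CPM in ΔMF mice (log2 fold change 0.78, SE 0.32, adjusted p = 0.601, edgeR). *Kcnc1* and *Kcnc4*, channels for fast repolarization, had log2 fold changes of 0.20 and -0.03. Without MS13-3, *Kcna1* (1.17, adjusted p = 0.0264) and *Kcnc1* (0.43, adjusted p = 0.0191, edgeR) were called, beside 7.77% of all genes. *Kcne3* and the inward rectifier *Kcnj14* were too low to be tested, with 27 and 2 counts over all mice.

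Among the calcium-activated and two-pore potassium channels, 7 of 20 listed genes were tested and 0 had an unadjusted p under 0.05. *Kcnma1*, the large-conductance channel, had a log2 fold change of 0.16 (adjusted p = 0.702, edgeR). *Kcnn3*, a small-conductance channel that rises in denervated muscle, had 3.00 ± 0.284 CPM in WT and 3.13 ± 0.694 CPM in ΔMF muscle. Of 8 denervation markers 6 were tested and 1, *Runx1*, had an unadjusted p under 0.05, with a lower level in ΔMF muscle (log2 fold change -0.42, adjusted p = 0.601). Their summed level was 31.5 to 37.2 CPM in WT and 30.3 to 35.4 CPM in ΔMF mice. *Chrng*, the fetal acetylcholine receptor subunit, was too low to be tested.

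*Atp1b1*, a beta subunit that carries the Na,K-ATPase to the membrane, lies on the minus strand of chromosome 1 from 164437109 to 164458355. It had 115.7, 74.2 and 75.9 CPM in the WT mice and 115.1, 126.4 and 110.3 CPM in the ΔMF mice. Both MS15 mice were far below the other 4, and MS13-3 lay inside the ΔMF range. The means were 88.6 ± 23.5 and 117 ± 8.26 CPM (SD, n = 3 mice each), and the fold difference of 1.33 had a 95% interval from 1.05 to 1.68. With an unadjusted p of 0.0239 it ranked at 459 of 12116 genes, and the adjusted p was 0.601 (edgeR). Within MS13 the log2 difference was 0.06, and over the 5 mice without MS13-3 it was 0.65 (SE 0.09; adjusted p = 0.00108). *Nme7*, which shares 575 exon bases with *Atp1b1* on the opposite strand, was listed at 1.63 ± 0.331 and 1.85 ± 0.289 CPM.

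The other pump subunits tested were not called. Of the other beta subunits, *Atp1b2* had 53.3 ± 8.97 and 57.5 ± 6.10 CPM and *Atp1b3* had 28.3 ± 0.743 and 28.0 ± 0.759 CPM. *Fxyd1*, which encodes the regulatory protein phospholemman, had a log2 fold change of 0.03. *Atp1b4*, a beta-like protein of muscle nuclei, had 7.68, 5.59 and 5.98 CPM in WT and 5.55, 4.88 and 3.86 CPM in ΔMF mice without overlap (log2 fold change -0.42, adjusted p = 0.622, edgeR). Of 14 pump genes listed beside *Atp1b1*, 8 were tested and 0 had an unadjusted p under 0.05.

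The 4 beta transcripts summed here include the beta-like *Atp1b4*, at 1.53 ± 0.264 CPM per kb in WT and 1.13 ± 0.203 CPM per kb in ΔMF muscle. Per kb of exon, *Atp1b1* made up 56.5%, 47.8% and 50.5% of the 4 in the WT mice and 56.2%, 60.9% and 58.6% in the ΔMF mice. The difference was 6.93 percentage points, and the genotypes overlapped through MS13-3 (two-sided exact permutation test, p = 0.20, where 3 mice against 3 cannot go below 0.10).

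**Figure D2:**
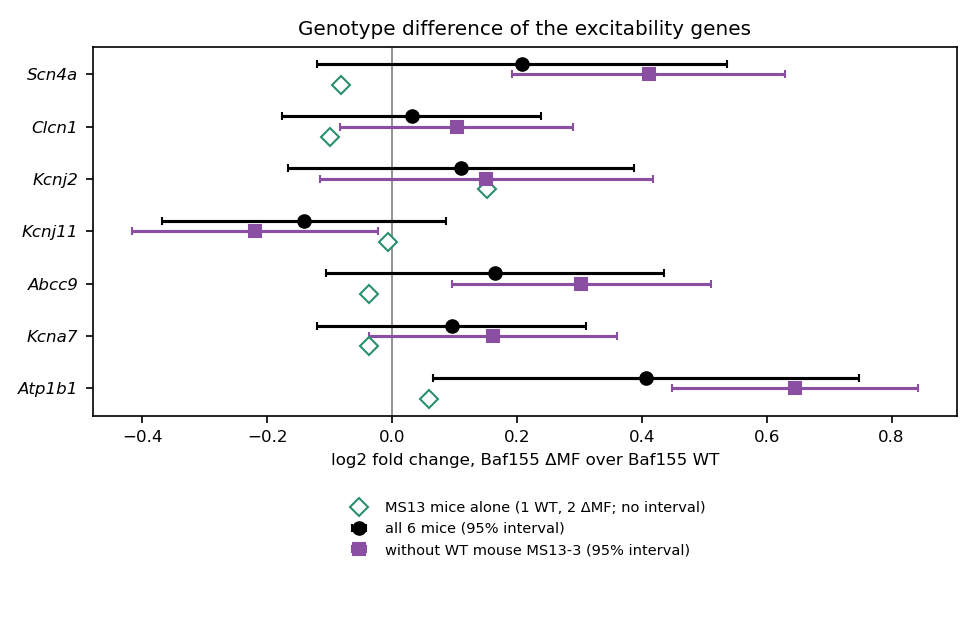
Log2 fold change of Baf155 ΔMF over Baf155 WT for each gene with all 6 mice, without the Baf155 WT mouse MS13-3, and between the MS13 mice alone. Bars are 95% intervals from edgeR, and the MS13 values have none. With all mice only the interval of *Atp1b1* lies above zero, from 0.06 to 0.75, and its MS13 value is 0.06.

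The calls among the 7 genes depended on MS13-3. Without this mouse *Scn4a* and *Atp1b1* were called, 2 of 7 genes beside 7.77% of all genes, and the genotypes no longer overlapped in 5 of the 7 genes beside 39.3% of all genes. *Abcc9* had a log2 fold change of 0.30 (adjusted p = 0.0727) and *Kcnj11* of -0.22 (adjusted p = 0.162, edgeR) in that comparison. With the title prefix as a covariate, in which the genotype term is read from the MS13 mice and so from 1 WT mouse, 0 of the 7 genes had an unadjusted p under 0.05, beside 5.08% of all genes.

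Several other measures also set the MS15 mice apart from the rest. *Ttn*, a very long transcript, had 81290, 47541 and 37561 CPM in the WT mice and 85257, 75257 and 62959 CPM in the ΔMF mice. The 1185 genes with the longest exon sequence had a median log2 deviation from the mean of all mice of -0.0958 in MS15-2 and -0.122 in MS15-3, and between 0.0036 and 0.106 in the other 4 mice. The summed level of 6 endothelial markers was 230 and 235 CPM in the MS15 mice. It was 301 CPM in MS13-3 and 295 to 317 CPM in the ΔMF mice. All 6 estimates were above zero, but in *Tek* (log2 fold change 0.04) and *Emcn* (0.01) the MS15 mice did not both lie below the other 4. *Kdr* and *Pecam1* had an unadjusted p under 0.05 (adjusted p = 0.601 each, edgeR), beside 7.95% of all genes in either direction. In these 2 of the 6 markers all ΔMF mice lay above all WT mice, MS13-3 included, with log2 differences within MS13 of 0.29 and 0.07. The genotypes did not overlap in 10.8% of all genes in either direction. Macrophage markers ran the other way. Their sum was 151 and 122 CPM in the MS15 mice and 40.1 to 76.8 CPM in the other 4 mice. All 5 had an unadjusted p under 0.05 (adjusted p = 0.601 each, edgeR), and the genotypes overlapped in each. After a trend with exon length was removed from each mouse, a step added after the values were seen, the log2 fold change was 0.17 for *Scn4a* and 0.44 for *Atp1b1* with all 6 mice. It was 0.34 (adjusted p = 0.0426) and 0.70 (adjusted p = 0.000739, edgeR) without MS13-3, beside 5.81% of all genes called. *Kcna7* rose to 0.16 with all mice and to 0.27 (adjusted p = 0.0923, edgeR) without MS13-3. *Atp1b1* also moved away from zero with this step, from 0.41 with all mice and 0.65 without MS13-3. *Scn4a* moved toward zero, from 0.21 and 0.41. The remaining genes moved toward zero as well, to 0.11 and 0.22 for *Abcc9* and 0.09 and 0.12 for *Kcnj2*. *Clcn1* moved to 0.01 and 0.07, and *Kcnj11* to -0.12 and -0.19. The part of the endothelial and macrophage cells in these values was not tested.

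Skeletal muscle markers were high in all 6 libraries. Summed over 7 fast fibre markers, led by *Myh4*, the level was 96474 to 98060 CPM in WT and 89186 to 99153 CPM in ΔMF mice. Within this list 1 of 7 genes, *Myh1*, a fast myosin, was higher without overlap (log2 fold change 0.49, adjusted p = 0.601, edgeR). The genotypes did not overlap in 10.8% of all genes in either direction. *Myh2* had an unadjusted p under 0.05 (0.38, edgeR), whereas *Pvalb* (-0.25) and *Tnni2* (-0.22) had estimates below zero. Of the 7 estimates, 3 were above and 4 below zero. Slow fibre markers summed to 519 to 791 CPM and 657 to 771 CPM. Of the cardiac markers, *Myh6* was listed at 1.24 and 1.45 CPM, and *Nppa* and *Ryr2* were too low to be tested.

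**Figure D3:**
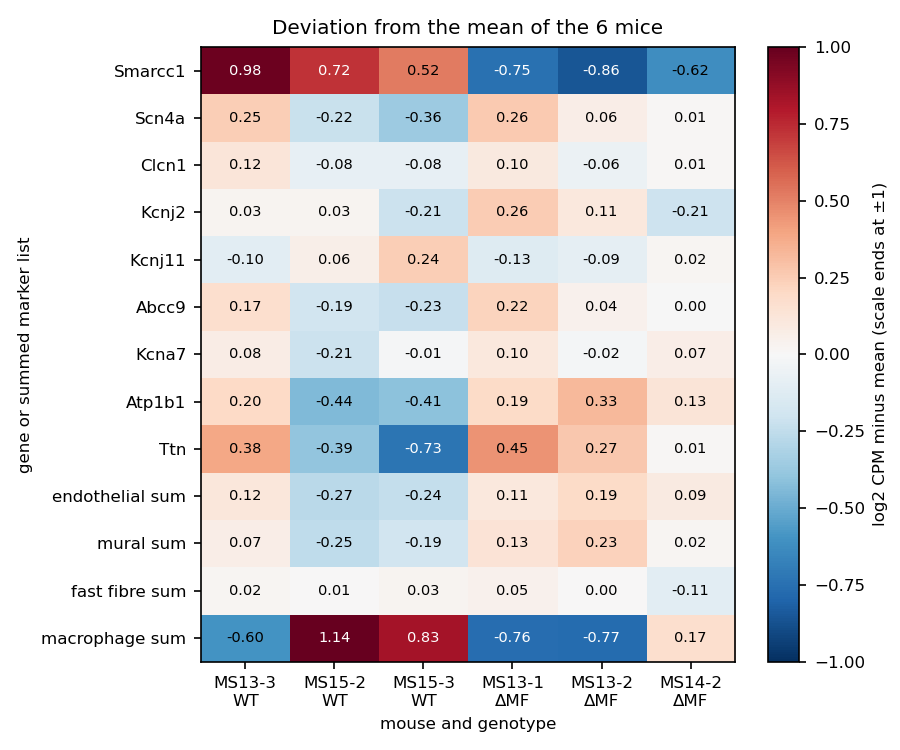
Log2 CPM of each mouse minus the mean of the 6 mice for *Smarcc1*, the 7 genes, *Ttn* and summed marker lists. *Smarcc1* separates the genotypes, from 0.52 to 0.98 in Baf155 WT and from -0.86 to -0.62 in Baf155 ΔMF mice. The 2 MS15 mice lie below the other 4 in *Scn4a*, *Clcn1*, *Abcc9*, *Atp1b1*, *Ttn* and the endothelial and mural sums. They lie above the other 4 in *Kcnj11* and the macrophage sum. *Kcnj2*, *Kcna7* and the fast fibre sum do not separate them.

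Levels can be compared between genes only per length. Per kb of exon and over all 6 mice, *Scn4a* was highest at 69.8 ± 11.8 CPM per kb (SD, n = 6). *Kcna7* (54.8 ± 4.22), *Abcc9* (48.9 ± 6.19), *Kcnj2* (41.3 ± 5.23), *Atp1b1* (33.4 ± 7.21), *Kcnj11* (30.0 ± 3.04) and *Clcn1* (24.2 ± 1.55 CPM per kb) followed. The ranges of neighbours in this order overlapped except for *Kcnj11* and *Clcn1*. Within mice, *Kcna7* was above *Abcc9*, *Abcc9* above *Kcnj2* and *Kcnj11* above *Clcn1* in 6 of 6 mice. *Scn4a* was above *Kcna7* and *Kcnj2* above *Atp1b1* in 5 mice, and *Atp1b1* above *Kcnj11* in 4 mice. The mean of *Atp1b1* was below that of *Kcnj11* in WT muscle (28.8 ± 7.62 against 31.5 ± 3.79 CPM per kb) and above it in ΔMF muscle (38.1 ± 2.68 against 28.6 ± 1.53 CPM per kb). The WT order came from both MS15 mice, since in MS13-3 *Atp1b1* was above *Kcnj11* (37.6 against 27.9 CPM per kb). *Kcnj8*, for comparison, reached 6.16 ± 0.874 CPM per kb in WT muscle.

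**Figure D4:**
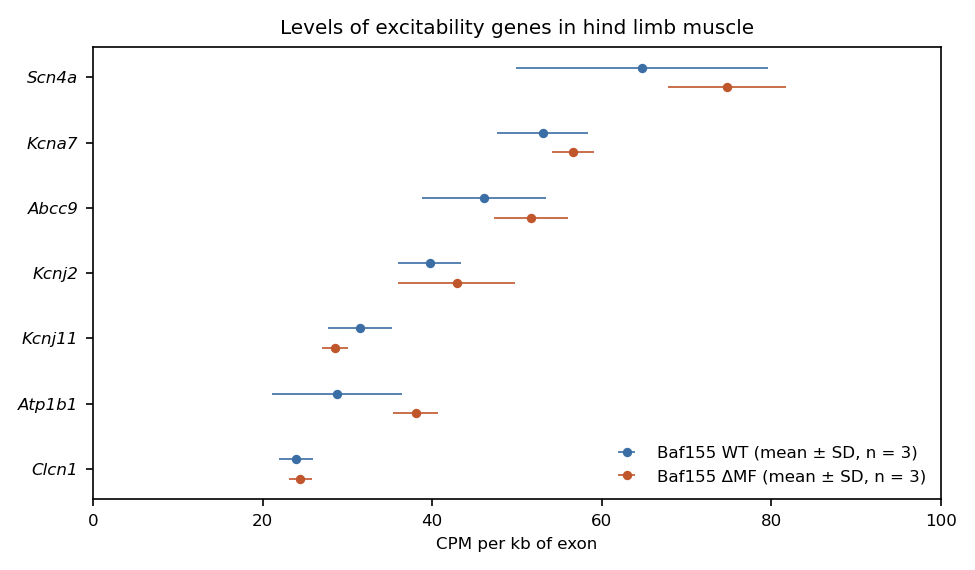
CPM per kb of exon of the 7 genes, as points with mean ± SD of 3 mice per genotype. The means lie between 23.9 and 74.8 CPM per kb, and the mean of *Atp1b1* is below that of *Kcnj11* in Baf155 WT muscle, where the MS13-3 mouse has the opposite order (37.6 against 27.9 CPM per kb), and above it in Baf155 ΔMF muscle.

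Over all 113 listed excitability genes beside the 7, 48 had enough counts to be tested. At an adjusted p under 0.05, 0 were called by edgeR, DESeq2 or limma-voom. The unadjusted p was under 0.05 for 2 of them by edgeR, *Kcnj8* and *Kcna1*, both higher in ΔMF muscle, beside 3.35% of all genes in this direction. Their median log2 fold change was 0.02, with 26 above and 22 below zero, and the genotypes did not overlap in 2, *Clcn6* and *Atp1b4*, both lower in ΔMF muscle, beside 5.57% of all genes in this direction.

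The genes whose pattern over the 6 mice was most like each of the 7 were found among 7707 others with a mean of at least 10 CPM, by the root mean square difference of patterns scaled to unit SD. The matches are a description over 6 mice, and all genes were read from the same libraries. For *Scn4a* they were *Vcp* (0.06 SD) and *Ppip5k1* (0.0774 SD), for *Abcc9* *Ankrd28* (0.0775) and *Pde7a* (0.0789), and for *Atp1b1* *Cd93* (0.0801 SD), an endothelial and myeloid receptor. *Kcnj11* was closest to *Adamtsl1* (0.0448) and *Naa10* (0.0921), *Clcn1* to *Esyt2* (0.134) and *Abcc5* (0.15), *Kcnj2* to *Rprd1a* (0.119) and *Gtf3c2* (0.132), and *Kcna7* to *Vps41* (0.119) and the potassium channel gene *Kcnq5* (0.142).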

How the data were processed

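Total RNA libraries (TruSeq Stranded Total RNA, Illumina HiSeq) were made from 6 mice, 1 per mouse. The authors deposited expected counts per gene symbol without normalization. Per the labels, the submitters' processing notes name cutadapt 1.10, TopHat2 2.1.1, Bowtie2 2.2.7, RSEM 1.2.30 and limma with mm10 and GRCm38, without their roles. After rounding, genotypes were compared with edgeR 4.0.16 under R 4.3.3 (filterByExpr, minimum count 10 and minimum total 15, TMM, quasi-likelihood F test, 12116 of 20632 genes). As alternatives, DESeq2 1.42.0 and voom (limma 3.58.1) were run, as were different scalings and filters, the title prefix as a covariate, and each mouse left out. Exon lengths and positions came from GENCODE M21 and promoters from RefSeq (GRCm38.p6). Fold intervals are 95% intervals of the edgeR fit.

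The 7 genes and the gene lists were chosen with earlier results of these data known. The genes named were the 7 genes, *Smarcc1*, fixed partners by role, listed genes with an unadjusted p under 0.05 and, per member, the 2 genes most alike in pattern. *Ttn*, *Scn4b*, *Fam131b*, *Nme7*, *Pvalb*, *Tnni2* and *Acta2* were named after their values were seen, as were the length measures. Some genes that this rule names are not reported here.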

Additional observations from a re-analysis of the deposited data

How the results depend on the processing

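No paired analysis was possible because the replicate numbers follow only the sample order and pair no mice. MS13 alone holds both genotypes, and the title prefix was fitted as a covariate. The count of the 7 genes called was 0 with DESeq2, limma-voom, every other scaling and filter, the robust fit, the title prefix as a covariate and a limit of 0.1, and it ranged from 0 to 2 with each mouse left out, 2 without MS13-3. The genes without overlap, 0 of 7, ranged from 0 to 5 with each mouse left out, 5 without MS13-3 (39.3% of all genes) and 1 without MS14-2 (28.8% of all genes), and the covariate fit gives no such count. The other excitability genes called ranged from 0 to 2, with *Kcna1* and *Kcnc1* without MS13-3, beside 7.77% of all genes. With the length trend removed and MS13-3 left out, a combination chosen after seeing the data, 2 of the 7 and 1 of the others, *Kcna1*, were called. The share over all genes in that combination was 5.81%.

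The direction turned with the title prefix as a covariate for *Scn4a* (-0.0782), *Clcn1* (-0.0977), *Kcna7* (-0.0354) and *Abcc9* (-0.0335), all log2. *Clcn1* also turned with library size scaling (-0.0280), where the median of all genes was -0.0643, and ranged from -0.0098 to 0.103 with each mouse left out. Apart from that shift, the cause was not tested. The adjusted p of *Atp1b1* ranged from 0.000739 to 0.993 over 17 alternatives and that of *Scn4a* from 0.0244 to 0.998. The directions of *Kcnj2*, *Kcnj11* and *Atp1b1* and of the *Atp1b1* share held in all alternatives run, in part at values near zero. *Kcnj2* fell to 0.0054 without MS13-1. With the title prefix as a covariate, *Kcnj11* was at -0.0071 and *Atp1b1* at 0.061, all log2. The share was not run with this covariate.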
